A study of Homo sapiens with 8 samples.

Results

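JUN, FOSB, KLF6, ETV4, IER3, PHLDA1, DUSP1, SPRY2 and SPRED1 are immediate early genes or feedback genes of growth factor signalling, and their histone acetylation was compared between stromal and astromal cultures. Every row of the H3K9ac peak lists that carried one of these names was taken, with every H3K27ac peak whose centre lay within 2 kb of such a row. This gave 9 of the 12186 genes named in the H3K9ac lists. They held 25 of 20326 stromal and 11 of 7141 astromal H3K9ac peaks, and 20 of 15093 stromal and 18 of 14489 astromal H3K27ac peaks. No H3K27ac peak lay between 2 and 5 kb from a row, and those taken lay at most 1225 bp (stromal) and 1356 bp (astromal) away. The genes were chosen with earlier results of these lists known, so their split between the lists is a description and not a test.

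The cells were MIA PaCa-2, an established human pancreatic cancer line, grown as spheroids in a hyaluronan hydrogel. Stromal cultures had a gel with Gelin-S, a collagen-derived component, and medium conditioned by immortalised myofibroblasts from resected pancreatic tumours, with 2% serum. Astromal cultures had a gel without Gelin-S and plain DMEM with 2% serum. All cultures started under 10% serum, and gel and medium differed together, so their parts cannot be told apart. Each condition and mark was 1 ChIP library with its own peak list, and the 4 input libraries were not analysed here on their own. With no replicates no test between conditions was possible. Intervals are exact 95% intervals that cover counting error only, and PCR duplicates would make them too narrow.

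Immediate early genes are transcribed within minutes of a stimulus, without new protein synthesis. Growth factors act through Ras, Raf, MEK and ERK on factors already bound at these promoters. Among the products are JUN and FOSB, subunits of the AP-1 transcription factor. Another set of targets, the dual-specificity phosphatases, Sprouty and SPRED proteins, damps the same pathway. Acetylation of histone H3 at lysine 9 (H3K9ac) or lysine 27 (H3K27ac) accompanies active promoters, and H3K27ac also marks active enhancers.

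Promoter sequences were taken from RefSeq (GRCh38.p14), the 250 bases before the annotated start, 5′ to 3′ in the direction of transcription. Of the 9 genes, 7 matched the RefSeq promoter table. IER3 and ETV4 had no entry. The sequences of 4 genes that hold a searched motif are shown, with PHLDA1 as one of the genes with astromal promoter H3K9ac that holds none. Capitals mark the motifs: TGACGTCA (the CRE, bound by CREB) and TATAAA (the TATA box) in DUSP1, TGACGTAA and TATAAA in FOSB, and TGACATCA in JUN and KLF6.
JUN promoter: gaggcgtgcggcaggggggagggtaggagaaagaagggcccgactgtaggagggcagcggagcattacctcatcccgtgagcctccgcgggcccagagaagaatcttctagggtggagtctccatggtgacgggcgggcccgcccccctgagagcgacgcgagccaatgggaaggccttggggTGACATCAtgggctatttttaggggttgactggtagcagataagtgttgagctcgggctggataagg
FOSB promoter: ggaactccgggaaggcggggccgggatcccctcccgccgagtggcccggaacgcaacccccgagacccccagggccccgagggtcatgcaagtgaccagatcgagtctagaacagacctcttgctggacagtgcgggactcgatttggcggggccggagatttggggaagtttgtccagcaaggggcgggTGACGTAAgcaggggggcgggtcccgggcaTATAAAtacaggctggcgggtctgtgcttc
KLF6 promoter: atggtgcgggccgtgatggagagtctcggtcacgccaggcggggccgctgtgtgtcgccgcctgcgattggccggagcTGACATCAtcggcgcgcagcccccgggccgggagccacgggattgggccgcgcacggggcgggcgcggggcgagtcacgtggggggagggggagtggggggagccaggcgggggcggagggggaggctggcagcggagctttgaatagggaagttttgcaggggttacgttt
PHLDA1 promoter: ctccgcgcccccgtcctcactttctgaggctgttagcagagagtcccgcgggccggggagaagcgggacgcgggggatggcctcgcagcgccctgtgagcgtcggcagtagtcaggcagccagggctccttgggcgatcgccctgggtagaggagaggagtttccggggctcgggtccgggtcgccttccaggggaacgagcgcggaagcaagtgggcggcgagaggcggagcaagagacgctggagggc
DUSP1 promoter: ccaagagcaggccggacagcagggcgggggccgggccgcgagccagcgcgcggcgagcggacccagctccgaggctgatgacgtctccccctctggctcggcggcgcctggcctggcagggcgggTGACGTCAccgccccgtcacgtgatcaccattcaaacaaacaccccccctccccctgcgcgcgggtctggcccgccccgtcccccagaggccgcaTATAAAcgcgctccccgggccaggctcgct
These windows are chr1:58784048-58784297 on the minus strand for JUN and chr19:45467746-45467995 on the plus strand for FOSB. For KLF6, PHLDA1 and DUSP1, all on the minus strand, they are chr10:3785210-3785459, chr12:76031777-76032026 and chr5:172771196-172771445.

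Both strands were searched over the same 250 bases of 35116 RefSeq promoters. The CRE stood in 1.65% of them and, among the 7 genes, in DUSP1, from -125 to -118 of the start. TATAAA stood in 10.7% of all promoters, and in DUSP1 and FOSB alike from -30 to -25. The AP-1 site (TGAGTCA or TGACTCA, 4.20% of promoters), the CArG box bound by SRF (1.16%) and the ETS site CCGGAAGT (3.42%) were in none of the 7. Another pair of motifs was searched after the promoters had been read. TGACATCA, an AP-1-like variant of the CRE held by 2.37% of promoters, stood in JUN from -67 to -60 and in KLF6 from -172 to -165. TGACGTAA, held by 0.370%, stood in FOSB from -60 to -53. No listed motif overlapped another within these 5 promoters. The G and C content was 62.0% in JUN, 65.6% in FOSB, 70.4% in PHLDA1, 72.4% in KLF6 and 74.4% in DUSP1, against a median of 58% over all promoters. It was 78.4% in SPRED1, and 41.2%, 62.4% and 70.4% in the entries of SPRY2, the first of them below the median.

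Levels are the deposited tags per peak per 10000000 tags of the library, written below as signal, with tags in brackets. The stromal H3K9ac library held 7569791 tags and the astromal one 3923202, both estimated from the values, and the H3K27ac libraries 17190695 and 13453902. In peaks lay 5.81% of stromal and 1.76% of astromal H3K9ac tags, against 1.97% and 2.17% for H3K27ac. Over 5129 genes with promoter H3K9ac in both lists, the median log2 ratio of stromal over astromal signal was 0.89. Over 7964 genes with H3K27ac in both lists the median was -0.17. Ratios below are therefore centred on the median of all genes under the same rule. A gene is called when its centred ratio is at least 2-fold and the interval leaves out 0. A lower level can mean fewer cells with the mark or less of it per cell, which bulk libraries cannot tell apart. Of the epithelial markers KRT8, KRT18, KRT19, EPCAM and CDH1, 3 of 5 had stromal and 1 of 5 astromal H3K9ac, and EPCAM and CDH1 had no row. Of 9 fibroblast markers, 3 had stromal and 0 had astromal H3K9ac (summed signal 157.2 and 0). COL1A2 made up most of it and had H3K27ac in both conditions, at 67.5 stromal and 89.2 astromal. Of the mesenchymal markers, VIM had H3K9ac in the stromal list only (92.5) and ZEB1 had no row. Of the 12186 genes named in the H3K9ac lists, 52.2% had stromal rows only and 0.936% astromal rows only, so such a skew was common to the lists. The part of fibroblast marks in the results was not tested.

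By gene name, promoter H3K9ac (a row within 1 kb of the TSS) split the 9 genes evenly. FOSB, ETV4, IER3 and SPRED1 had it in the stromal list only, JUN, KLF6, PHLDA1 and SPRY2 in the astromal list only, and DUSP1 in both. Of all 12186 genes, 45.6% were stromal only and 1.08% astromal only. H3K27ac near the rows was present in both conditions for JUN, FOSB, KLF6, IER3, PHLDA1 and DUSP1 (6 of 9, 66.7%), in the astromal list only for SPRED1, and in neither for ETV4 and SPRY2. Over all genes 65.4% had it in both, 5.2% in the stromal list only, 7.64% in the astromal list only and 21.8% in neither, so the share in both was close to that of all genes. These H3K27ac peaks lay near rows at any distance, and those of PHLDA1 were all distal. Within 2 kb of the TSS, a rule added after the data had been seen, 5 of 9 had H3K27ac in both (62.1% of 10869 genes). On that rule 3, ETV4, PHLDA1 and SPRY2, had it in neither (26.1%).

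The name a peak carries decided the class of JUN. Its strong stromal H3K9ac peak, at -766 bp from the JUN TSS, carries the name of the neighbouring transcript LINC01135. Counting every peak within 1 kb of a TSS, whatever its name, put JUN with DUSP1 in both lists and left KLF6, PHLDA1 and SPRY2 as astromal only. On that count 39.1% of all genes were stromal only and 0.359% astromal only. The position rule was added after the data had been seen.

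**Figure D1:**
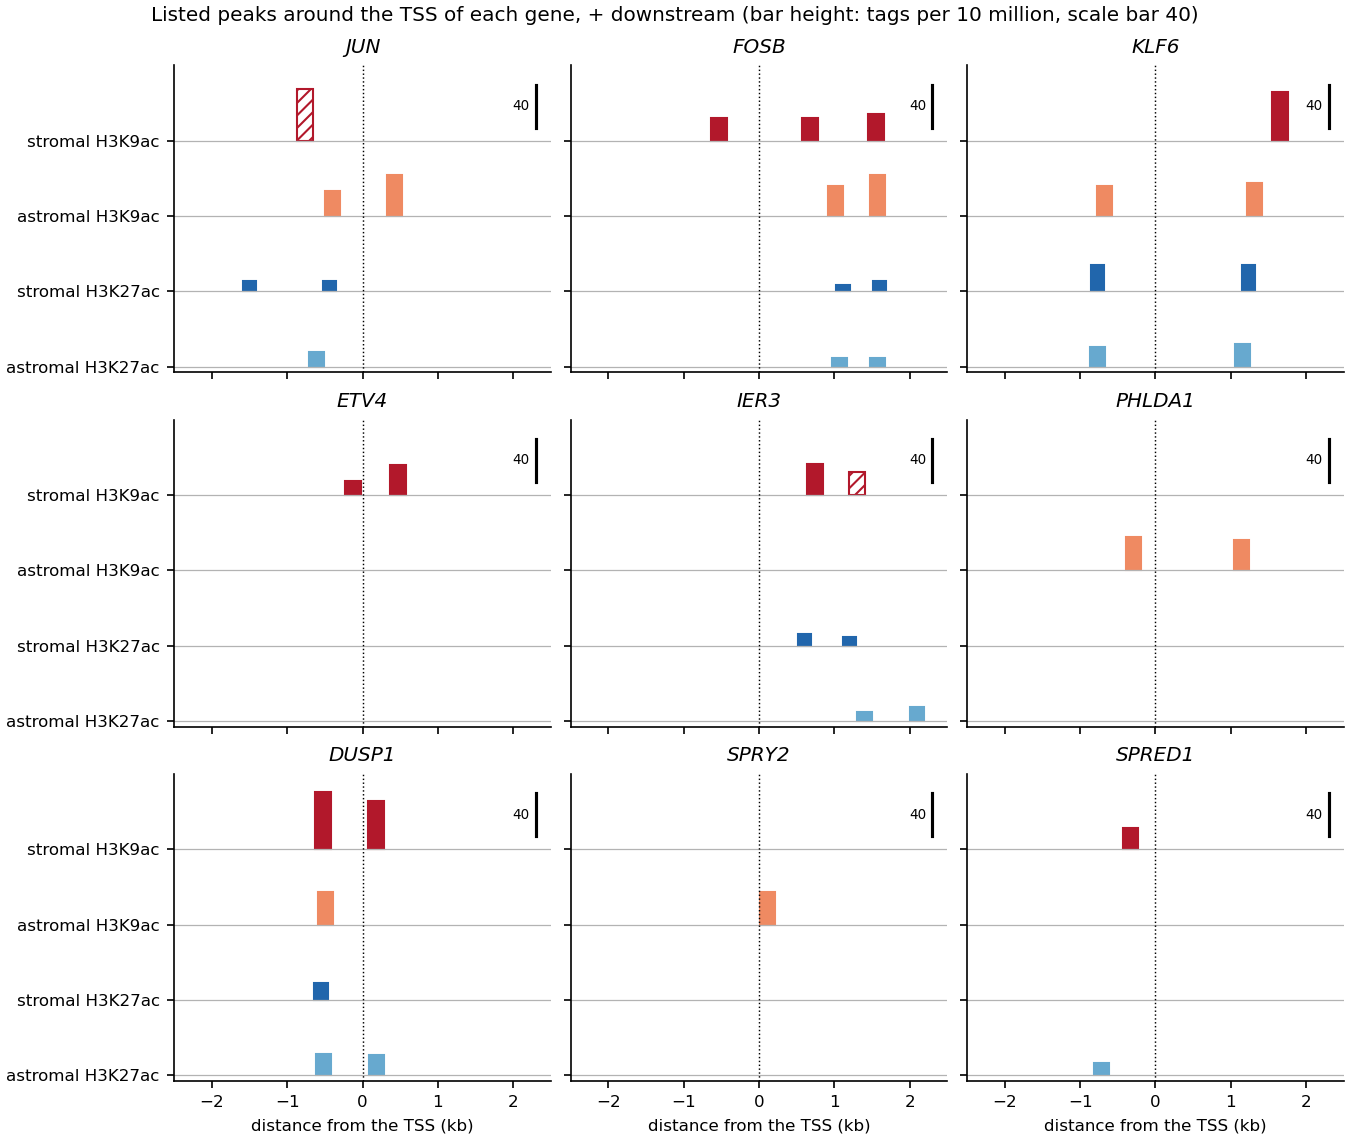
Listed peaks within 2.5 kb of the TSS of each of the 9 genes. The x axis is distance from the TSS in kb (positive downstream), each row is 1 library, bar width is the peak width and bar height the signal in tags per 10000000 (scale bar 40). Hatched bars carry another gene name. SPRY2 and PHLDA1 show astromal H3K9ac alone, ETV4 stromal H3K9ac alone, and JUN, FOSB, KLF6 and DUSP1 peaks in all 4 libraries.

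Among the transcription factors, JUN, the main AP-1 subunit, had both marks in both conditions, with H3K9ac at positions that did not overlap. Stromal H3K9ac was 47.6 (36 tags, interval 33.3 to 65.8) in 1 peak at chr1:59250446-59250656 (hg19), in the region annotated as the JUN promoter. Astromal H3K9ac was 38.2 (15 tags) in the 5′ UTR, 430 bp downstream of the TSS, and 22.9 (9 tags) at -393 bp. The nearer astromal peak had its centre 373 bp from the stromal one, and neither overlapped it. Summed within 1 kb, JUN had 47.6 over 210 bp in stromal and 61.2 over 400 bp in astromal cultures, a centred log2 ratio of -1.36 (interval -2.15 to -0.55). It was called lower, as were 3.92% of the 5582 genes with such peaks in both lists. Without centring the ratio was -0.36, and the mean per peak was higher in stromal cultures, at 47.6 against 30.6. H3K27ac at JUN was weak, with stromal peaks of 9.31 at -437 and 9.31 at -1506 bp and an astromal peak of 14.1 at -610 bp, which overlapped the first of them. The sums of 18.6 (32 tags) stromal and 14.1 (19 tags) astromal gave 0.57 (-0.30 to 1.47), which was not called.

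FOSB, another AP-1 subunit, had stromal H3K9ac on both sides of its TSS. Peaks of 21.1 at -535 bp and 21.1 at 672 bp were in the stromal list only. Both conditions had a peak in an intron about 1.6 kb downstream, 25.1 (19 tags) stromal and 38.2 (15 tags) astromal, and the astromal list had another of 28.0 (11 tags) at 1016 bp. That last peak lay just outside the 1 kb window, so the astromal list placed its H3K9ac further into the gene. Within 2 kb the sums were 67.4 over 630 bp in stromal and 66.3 over 400 bp in astromal cultures. Centred, this was -1.03 (-1.74 to -0.29) and called lower, as were 4.47% of 5774 genes with peaks in both lists, although the uncentred levels were nearly equal at 0.02. The mean per peak was 22.4 stromal and 33.1 astromal. H3K27ac within 2 kb of the TSS was 15.7 stromal and 16.4 astromal, a centred ratio of 0.11 (-0.75 to 1.00).

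KLF6, a zinc finger transcription factor, had most peaks of the 9 genes, 9 in H3K9ac and 11 in H3K27ac. In an intron the stromal H3K9ac peak was 44.9 (34 tags) at 1649 bp and the astromal one 30.6 (12 tags) at 1312 bp, and they did not overlap. The astromal list alone had a promoter peak, 28.0 (11 tags) at -675 bp (chr10:3828048-3828248). Both conditions had H3K27ac at that promoter position, 25.0 (43 tags) stromal and 18.6 (25 tags) astromal, and in the intron, 24.4 and 21.6. The H3K9ac sums within 2 kb, 44.9 over 210 bp stromal and 58.6 over 400 bp astromal, gave -1.44 (-2.24 to -0.61), called lower like 4.47% of genes. Uncentred, that ratio was -0.38. It sums 1 stromal and 2 astromal peaks, and the mean per peak was higher in stromal cultures, at 44.9 against 29.3.

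ETV4, an ETS factor of the PEA3 family induced by ERK signalling, had stromal H3K9ac only. It stood at 27.7 (21 tags, interval 17.2 to 42.4) in an intron 469 bp downstream (chr17:41622731-41622941) and at 13.2 (10 tags) at -127 bp. The nearest astromal H3K9ac peak was 61275 bp away, and neither condition had H3K27ac nearby. At the astromal depth the larger peak would hold 10.9 tags and the smaller 5.18. The lowest astromal signal listed was 12.7, so the smaller one lay at the edge of what that list holds. These values scale for depth only. Taking off the median log2 ratio of 0.89 over all genes would bring both peaks lower still.

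IER3 and PHLDA1 encode short-lived or stress-induced regulators of survival, and IER3 also modulates ERK signalling. IER3 had stromal H3K9ac of 29.1 (22 tags) in its 3′ UTR, 742 bp downstream of the TSS (chr6:30711480-30711690). A further stromal peak of 21.1 (16 tags) at 1304 bp carries the name of the neighbour FLOT1. It is annotated as the FLOT1 promoter, at -570 bp from the FLOT1 TSS. No astromal H3K9ac peak lay within 23138 bp. A signal of 29.1 exceeded 79.3% of the astromal list. Taking off the median log2 ratio of 0.89 over all genes would bring it closer to the lowest signal of that list, 12.7. Stromal H3K27ac lay 602 bp (10.5, 18 tags) and 1207 bp (8.14, 14 tags) from the IER3 TSS. Astromal H3K27ac lay further from it, at 1401 bp (8.18, 11 tags) and 2098 bp (13.4, 18 tags). All but the peak at 602 bp lay close to the FLOT1 promoter, so they cannot be assigned to IER3 rather than FLOT1. All 4 peaks summed to 18.6 stromal and 21.6 astromal, or -0.04 (-0.81 to 0.73). Counting only those within 2 kb of the TSS turned this into 18.6 over 348 bp against 8.18 over 196 bp, or 1.36 (0.33 to 2.5). That was called higher, as were 5.2% of the 6746 genes with H3K27ac in both lists under this rule, because the peak at 2098 bp fell outside.

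PHLDA1 had promoter H3K9ac in astromal cultures only, 30.6 (12 tags, interval 15.8 to 53.4) at -291 bp (chr12:76425747-76425947) and 28.0 (11 tags) in an exon at 1140 bp. The stromal peak nearest to the promoter one was 51480 bp away. Scaled to the stromal depth the promoter peak would hold 23.2 tags and exceed 64.3% of the stromal list, whose lowest signal was 10.6. No H3K27ac peak lay within 2 kb of this TSS in either condition. All 6 stromal H3K9ac peaks named PHLDA1 lay between 78.3 and 183.2 kb downstream, at 13.2 to 19.8.

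Among the feedback inhibitors, DUSP1, a phosphatase that inactivates MAP kinases, had the highest stromal promoter H3K9ac of the 9 genes. Stromal peaks were 52.8 (40 tags, interval 37.8 to 72.0) at -522 bp and 44.9 (34 tags) in the 5′ UTR at 180 bp. The astromal list had 30.6 (12 tags, 15.8 to 53.4) at -487 bp and none at 180 bp. H3K27ac showed the other pattern at the second position: the stromal list had 15.7 (27 tags) at -551 bp alone, and the astromal list 20.1 (27 tags) at -519 bp and 18.6 (25 tags) at 188 bp. The 5′ UTR site of DUSP1 thus carried listed H3K9ac in stromal and listed H3K27ac in astromal cultures. H3K9ac summed to 97.8 over 420 bp stromal and 30.6 over 200 bp astromal, a centred ratio of 0.79 (-0.10 to 1.8), not called, and 3.20-fold uncentred. These sums hold 2 stromal peaks and 1 astromal peak, and on the highest peak alone, 52.8 against 30.6, the centred ratio was 0.11. With the stromal peak 6.1 kb downstream added, the ratio was 1.01 (0.13 to 2.01) and called higher, as were 5.94% of the 5706 genes with rows in both lists. H3K27ac within 2 kb of the TSS was 15.7 over 174 bp stromal and 38.7 over 392 bp astromal. At -1.13 (-1.85 to -0.43) it was called lower, as were 6.29% of the 6746 genes with H3K27ac in both lists. The mean per peak was 15.7 stromal and 19.4 astromal, and the stromal sum held 1 peak against 2. Over all H3K27ac near its rows the sums of 48.9 and 75.1 gave -0.45 (-0.89 to -0.02), which was not called.

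SPRY2, a Sprouty protein that inhibits receptor tyrosine kinase signalling, had a single peak over the 4 lists. It was an astromal H3K9ac peak of 30.6 (12 tags, interval 15.8 to 53.4) in the 5′ UTR at 112 bp (chr13:80914874-80915074), and the nearest stromal H3K9ac peak was 209172 bp away. SPRED1, which inhibits Ras activation of Raf, had the opposite pattern between marks. Its stromal H3K9ac peak was 19.8 (15 tags) at -332 bp (chr15:38544615-38544825), and its only H3K27ac peak was astromal, 11.1 (15 tags) at -717 bp. The SPRED1 stromal peak would hold 7.77 tags at the astromal depth, and fewer with the median log2 ratio of 0.89 over all genes taken off.

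**Figure D2:**
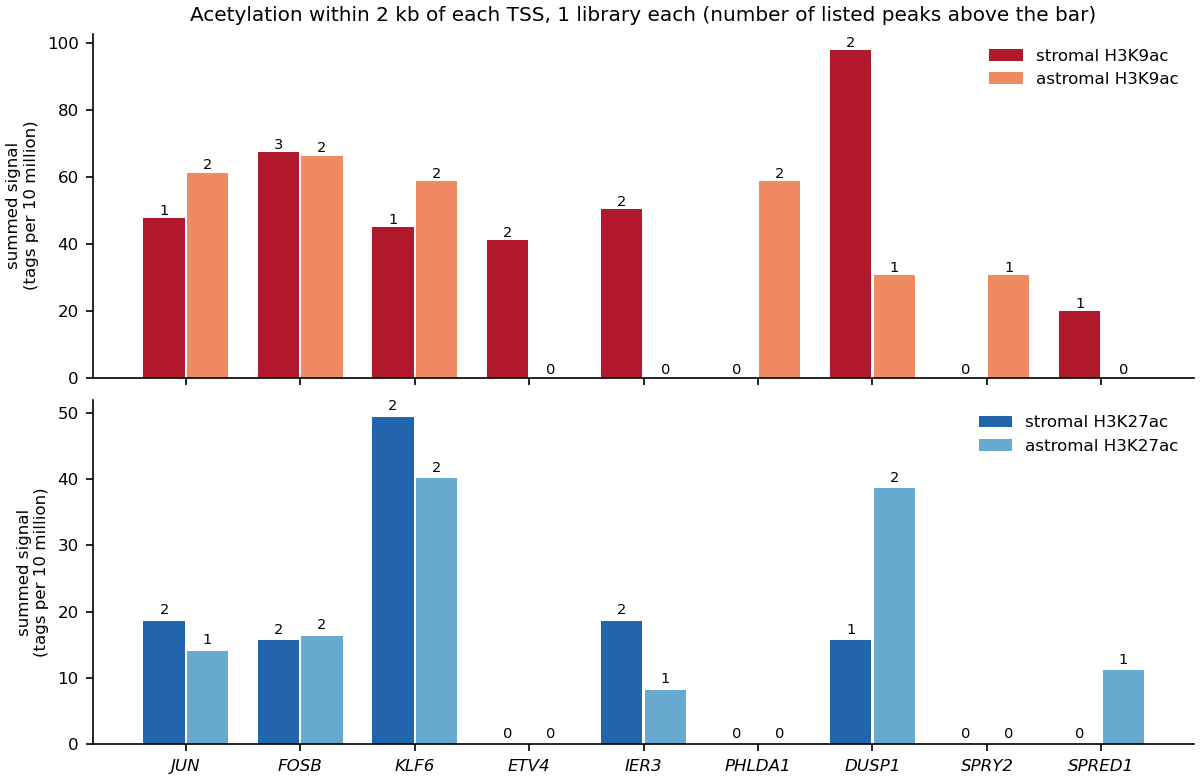
Summed signal within 2 kb of each TSS (y axis, tags per 10000000), H3K9ac above and H3K27ac below, 1 library per bar, stromal left of astromal, with the number of listed peaks over each bar; no replicate error exists. DUSP1 has the tallest stromal H3K9ac bar (97.8 against 30.6) and the reverse order in H3K27ac (15.7 against 38.7). A value of 0 means that no peak was listed.

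Over each gene as a whole, few ratios were called. With all rows at any distance, H3K9ac gave 146.6 stromal and 66.3 astromal for FOSB, a centred 0.16 (-0.47 to 0.84). KLF6 had 145.3 and 79.0, or -0.11 (-0.69 to 0.52), and PHLDA1 101.7 and 58.6, or -0.19 (-0.88 to 0.55). The PHLDA1 sums share no site. All 6 stromal peaks lay 78.3 to 183.2 kb downstream and the 2 astromal peaks within 2 kb of the TSS, so this ratio is not an unchanged level. Only DUSP1 was called among the 4 genes with rows in both lists. In H3K27ac, KLF6 had 157.6 (271 tags) in 7 stromal peaks over 1218 bp and 81.8 (110 tags) in 4 astromal peaks over 784 bp. This was 1.12 (0.79 to 1.45), called higher, as were 5.54% of the 7964 genes with H3K27ac in both lists. The mean per peak was 22.5 stromal and 20.5 astromal, so the sums differed mainly in the number of peaks. Without centring the ratio was 0.95 and below 2-fold, and with H3K27ac within 1 kb of the rows it was 0.85 and not called. FOSB (-0.04, -0.50 to 0.42) and PHLDA1 (0.26, -0.17 to 0.69) were not called. The median over the 6 genes with H3K27ac in both conditions was 0.11, against 0 over all genes by construction.

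**Figure D3:**
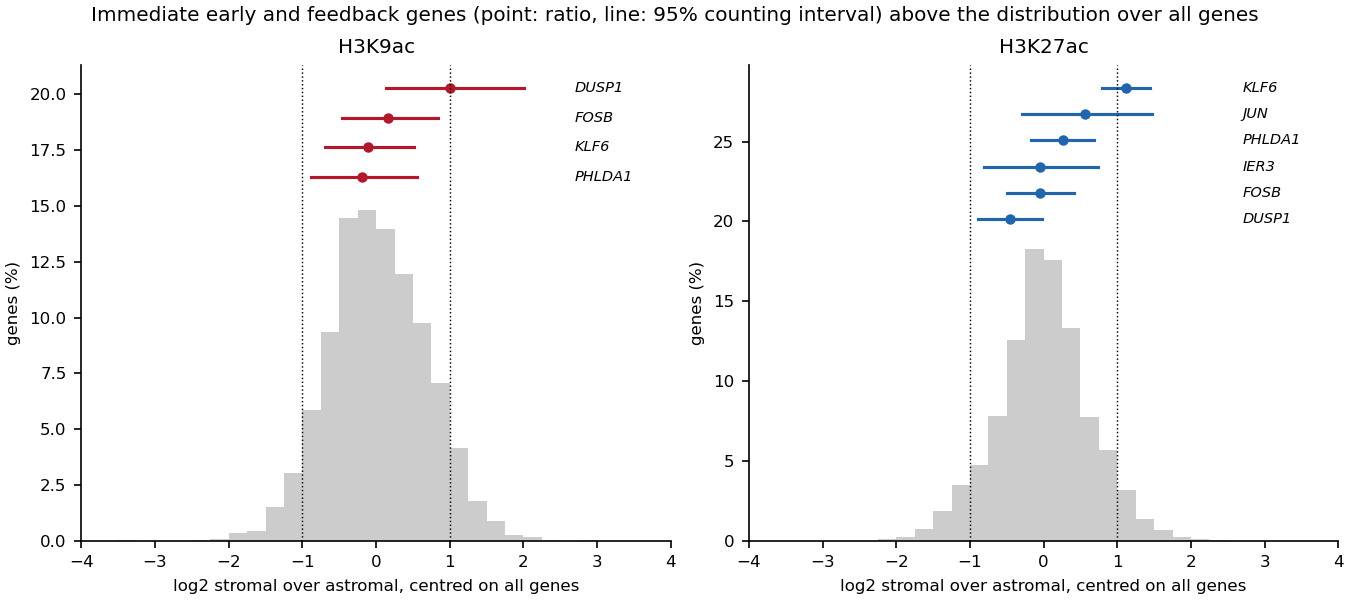
Centred log2 ratio of stromal over astromal (x axis) for H3K9ac, all rows of a gene, at left and H3K27ac near those rows at right. Grey bars give the share of all genes in each bin (y axis, %), points the named genes at heights without meaning, lines their 95% counting intervals and dotted lines 2-fold. DUSP1 lies at 1.01 in H3K9ac and -0.45 in H3K27ac, and KLF6 at -0.11 and 1.12. The H3K9ac point of PHLDA1 sets distal stromal peaks against astromal peaks near the TSS, with no site in common.

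PHLDA1 and KLF6 carried most of the distal stromal H3K9ac, where a row carries the name of the nearest TSS. Of the 25 stromal rows 15 (60%) lay beyond 5 kb of the TSS, against 17.0% of the whole stromal list. Of these, 6 belonged to PHLDA1, 5 to KLF6, 3 to FOSB and 1 to DUSP1, and the other genes had none. Of the 11 astromal rows 1 (9.09%) did, against 8.86%. Few stromal rows overlapped an astromal one, 3 of 25 (12%) against 26.6% of the whole list, and 3 of 11 astromal rows (27.3%) overlapped a stromal one, against 75.8%. H3K27ac peaks overlapped the other condition about as often as elsewhere, 13 of 20 stromal (65% against 58.4%) and 13 of 18 astromal (72.2% against 60.8%).

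The distal rows formed 12 sites of FOSB, KLF6, PHLDA1 and DUSP1. H3K9ac was stromal only at 11 of them and in both conditions at 1, 41 kb upstream of KLF6 (29.1 stromal and 20.4 astromal). H3K27ac was in both conditions at 5 sites, stromal only at 2 and in neither at 5. Hence 4 sites without astromal H3K9ac had astromal H3K27ac. The site 10.9 kb downstream of FOSB had the most stromal H3K9ac of them, 41.0 (31 tags). Its H3K27ac was 34.3 (59 tags, interval 26.1 to 44.3) stromal and 41.6 (56 tags, 31.4 to 54.1) astromal. Both exceeded 99% of their lists, and they lay at chr19:45982001-45982175 and chr19:45981975-45982171. Of 14 stromal distal rows without astromal H3K9ac overlap, 5 (35.7%) had astromal and 8 (57.1%) stromal H3K27ac within 2 kb. Over the whole stromal list these shares were 53.9% and 53.8% of 2990 rows.

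The H3K27ac call of KLF6 came from its distal sites. At 68 kb upstream the sums were 50.7 stromal and 21.6 astromal, and at 102 kb 32.6 stromal and no astromal peak. At 41 kb they were 25.0 and 20.1, and within 2 kb of the TSS 49.4 and 40.1 (centred 0.47, -0.03 to 0.99). The stromal peaks at 102 kb stood 4.27-fold and 4.02-fold over the surrounding 10 kb, just past the 4-fold that the caller required. The stromal-only H3K27ac peak 78.4 kb downstream of PHLDA1 (22.1, 38 tags) also stood 4.02-fold over its surroundings. Near these genes 11 of 20 stromal (55%) and 9 of 18 astromal (50%) H3K27ac peaks were under 5-fold over the local region, against 18.6% and 15.7% of the whole lists. At 154 kb downstream of PHLDA1 both conditions had H3K27ac, with stromal H3K9ac of 18.5 and 19.8 at the same place.

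**Figure D4:**
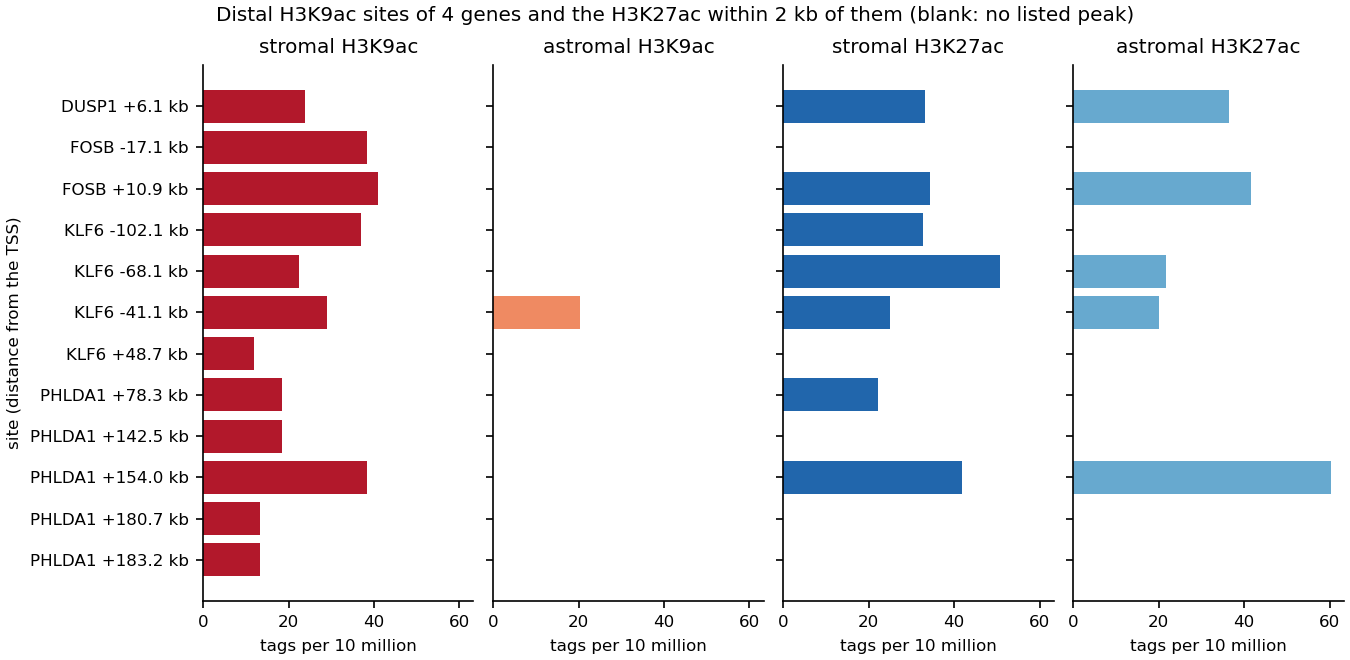
Summed signal (x axis, tags per 10000000) at the 12 H3K9ac sites more than 5 kb from the TSS, 1 panel per library. Each row is a site named by gene and distance, and a blank means that no peak was listed. All 12 sites have stromal H3K9ac, 1 (KLF6 at -41.1 kb) has astromal H3K9ac, and 5 have H3K27ac in both conditions.

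The 2 marks come from different antibodies and are compared only by place among all genes with both. H3K9ac was summed over rows within 1 kb of the TSS, and H3K27ac over peaks within 2 kb of those rows, a wider window. In stromal cultures, H3K27ac over promoter H3K9ac at DUSP1 was 15.7 against 97.8, a centred ratio of -1.32 (-2.01 to -0.67), at the 6.65th percentile of 7567 genes. FOSB stood at -0.11 and IER3 at 0.68, neither called. In astromal cultures JUN had 14.1 against 61.2, or -1.92 (-2.87 to -0.99), at the 0.68th percentile of 4737 genes, while KLF6 (0.71) and DUSP1 (0.53) were not called. On these promoter rows DUSP1 in stromal and JUN in astromal cultures were called lower, as were 12.6% of the 7567 and 6.12% of the 4737 genes. On the highest peak of each mark neither was called, at -0.37 for DUSP1 and -0.90 for JUN.

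With every peak within 2 kb of the TSS, a rule added after the data had been seen, other genes entered. In stromal cultures KLF6 had 49.4 against 44.9, or 1.71 (1.12 to 2.33), at the 98.5th percentile of 7230 genes. It was called higher, as were 9.24% of them, and DUSP1 stayed lower at -1.06 (-1.76 to -0.41), as were 11.5%. In astromal cultures FOSB had 16.4 against 66.3, or -1.72 (-2.61 to -0.85), at the 1.28th percentile of 5232 genes. FOSB and JUN (-1.82, -2.77 to -0.89) were called lower, as were 7.05% of them. KLF6 in astromal cultures stood at -0.25, on the other side of 0 from its 0.71 on promoter rows, and was called under neither rule. Its astromal H3K27ac was 40.1 under both rules. The promoter rows left out its astromal H3K9ac peak at 1312 bp, so H3K9ac was 28.0 there and 58.6 here.

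Of 49 genes in a wider list of the pathway, 42 had a row. This list leaves out the 9 genes above, and both were chosen with earlier results of these data known. Promoter H3K9ac was stromal only in 16 (38.1%, against 45.6% of all genes) and in both lists in 19 (45.2% against 42.1%). It was astromal only in 0, near the 1.08% of all genes, and in neither in 7 (16.7% against 11.2%). No ratio among the 19 was called on these promoter rows, and their median was -0.01. Of 16 AP-1 and other transcription factors 6 were stromal only, as were 4 of 13 other immediate early genes and 6 of 13 feedback genes and targets. The highest stromal-only promoters were those of GADD45B (59.4), a stress-induced growth arrest gene, PHLDA2 (51.5), a relative of PHLDA1, and SRF (48.9), which binds the CArG box. RHOB (46.2), a small GTPase, and KLF10 (38.3), a TGF-beta-induced factor, followed. With rows at any distance 5 of 26 ratios were called higher and 1 lower (median 0.31), against 5.94% and 3.56% of all genes with a ratio. SRF had 91.2 in 3 stromal peaks and 20.4 in 1 astromal peak (1.18), and KLF4, a relative of KLF6, 91.2 in 4 and 17.8 in 1 (1.37). ZFP36L1, an mRNA decay factor, had 190.2 in 8 and 40.8 in 1 (1.24). GADD45B had 150.6 in 6 and 22.9 in 1 (1.73), and SPRED2, a relative of SPRED1, 105.7 in 4 and 25.5 in 1 (1.07). Each of these 5 thus had more stromal than astromal peaks. ZFP36, another mRNA decay factor, was called lower at 50.2 and 58.6, in 1 peak each (-1.21). By position within 2 kb, ATF3, a stress-induced transcription factor, was called higher, with 118.9 in 4 stromal peaks and 22.9 in 1 astromal peak (1.32). MYC (56.8 in 1 and 66.3 in 2, -1.27) and IER2 (48.9 in 1 and 56.1 in 2, -1.25) were called lower by position within 2 kb. The shares of all genes with a ratio were 4.16% higher and 4.47% lower. By position within 1 kb, ATF3 (0.66), MYC (-0.22) and IER2 (-0.06) were not called.

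H3K27ac of these genes was in both conditions in 27 (64.3%), stromal only in 4, astromal only in 1 and in neither in 10, against 65.4%, 5.2%, 7.64% and 21.8% of all genes. It was called higher for 3 of the 27, and 5.54% of all genes with a ratio were. MYC, a growth-promoting transcription factor, had 46.0 in 2 stromal peaks and 24.5 in 1 astromal peak, or 1.07 (0.47 to 1.71). PHLDA3, an inhibitor of AKT, had 41.9 in 2 and 19.3 in 1, or 1.28 (0.62 to 1.99). ETV1, a relative of ETV4, had 22.7 in 2 and 11.9 in 1, or 1.10 (0.23 to 2.04). KLF2, a relative of KLF6, was the 1 gene called lower, against 6.2%. It had 9.89 in 1 stromal peak and 26.0 in 2 astromal peaks, or -1.23 (-2.16 to -0.35). Each of these calls thus compares sums over unequal numbers of listed peaks. The median of the 27 was 0.17.

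The genes most like each member over the 4 libraries were found by the Euclidean distance of log2(1 + signal) over all rows. FOSB was nearest to PHF12 (0.19) and CNBP (0.21), and PHLDA1 to FUBP1 (0.099) and RTN4 (0.17). KLF6 was nearest to C2orf57 (0.43) and MIR3143 (0.51), and DUSP1 to USPL1 (0.27) and ABL1 (0.33). These 4 were the members with peaks in all 4 lists by name.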

How the data were processed

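H3K9ac and H3K27ac ChIP-seq peak lists of 4 libraries, 1 per mark and condition, were analysed on build hg19. CASAVA 1.8.2, Bowtie and HOMER are named in the submitters' processing notes. Signal is a deposited tag count, scaled by the authors to 10000000 tags. For H3K9ac, whole tags were recovered from its even steps (all within 0.1 tag). H3K27ac peaks passed an FDR of 0.001, a ratio of 4-fold over input and 4-fold over the local 10 kb, each with a p-value limit, per the file headers. For H3K9ac the sources used here give no thresholds. The focus fraction and the score that the authors deposited for each peak were not used. Promoter rows lay within 1 kb of the TSS the authors' annotation implies. Strand for SPRY2 and SPRED1 came from the RefSeq table, and it was the same for 5438 of 5450 genes checked.

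Ratios are of summed normalised tags, with exact Clopper-Pearson 95% intervals, computed with Python 3.11.15, pandas 2.3.3, NumPy 2.4.6 and SciPy 1.17.1, and the ratio code was tested on simulated data. Intervals of single peaks are exact Poisson intervals. Depth of a median peak was 20 and 9 tags in stromal and astromal H3K9ac, and 20 and 18 in H3K27ac, which limits the precision. The members, gene lists and motifs were chosen with earlier results of these data known. All members are named. Of the other pathway genes, those astromal only in H3K9ac, those called in either mark and the 5 highest stromal-only ones are named, on the promoter and 2 kb rules. Those called by any-distance or position rules were added after their values were seen.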

Additional observations from a re-analysis of the deposited data

How the results depend on the processing

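All differences rest on 1 library per group, and a gene missing from a list was not measured as lacking the mark. No paired analysis was possible because each group has 1 library. Leaving out a library was not possible either. Of 112 alternative values 78 stayed within the counting interval of the reported ratio or, for counts, within 1.5 times. Some of these still changed a call: DUSP1 in H3K9ac was called at 1.68 without centring and 1.01 with all rows, and KLF6 in H3K27ac lost its call at 0.95 without centring and 0.85 within 1 kb. For promoter H3K9ac, counting all rows gave 4 genes in both lists (46.8% of all genes) and 2 astromal only (0.936%). A 2.5 kb window gave 3 in both (43.4%), and position within 1 kb gave 2 in both (51.4%). With at least 15 tags per peak, 5 genes were stromal only (71.0% of all genes) and 0 were in both lists (3.50%). On that cut 1 was astromal only (0.0739%) and 3 were in neither (25.5%). The cut is unlike between the lists, since 15 tags are a signal of 19.8 in stromal and 38.2 in astromal H3K9ac. Most astromal peaks, with a median of 9 tags, fall below it by depth. Requiring 1 bp overlap made H3K27ac stromal only at 2 genes (8.05% of all genes) and astromal only at 0 (12.4%). In H3K9ac, DUSP1 was the 1 gene called higher with all rows, and also the 1 without centring. By position, 1 gene was called lower within 1 kb (3.92% of all genes with a ratio) and 3 within 2 kb (4.47%). These position rules were added after seeing the data. In H3K27ac, 0 genes were called higher on the highest peak (0.49% of all genes with a ratio) or without centring (3.18%). IER3 turned to 1.36 within 1 kb of a row and within 2 kb of the TSS, and took the place of KLF6 as the 1 gene called higher. Of all genes with a ratio, 5.51% were called higher on the former rule and 5.2% on the latter. On the latter rule 1 gene, DUSP1, was called lower, as were 6.29% of all genes with a ratio. For H3K27ac over H3K9ac, the highest peak gave 0 genes called lower in either condition (4.57% of all genes with a ratio in stromal and 1.12% in astromal cultures). Without centring 2 were called lower in stromal cultures, as were 63.1% of the 7567 genes, so that count only follows all genes. Within 2 kb of the TSS, 1 gene was called higher in stromal cultures (9.24% of all genes with a ratio) and 2 lower in astromal cultures (7.05%). Where no construction is named, the cause was not tested. Depth limits weak sites, with a median of 9 tags in an astromal H3K9ac peak.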
